A study of Mus musculus with 15 samples.

Results

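The genes described here encode enzymes and transporters of peroxisomal beta-oxidation: Abcd2 and Abcd3, Acox3, Ehhadh, Hsd17b4, Acaa1a, Scp2 and Crot. They were chosen by name, as the rows of each deposited table whose Ensembl gene ID carries one of these symbols, and all 8 were found among the 23347 genes of the progenitor table and the 23118 genes of the preadipocyte table. Bulk RNA-seq was done on adipocyte precursors sorted by flow cytometry from the subcutaneous fat of wildtype C57Bl/6 pups, which had been cross-fostered and had taken milk with a High or a Low n6/n3 ratio of polyunsaturated fatty acids. CD24+ cells are called progenitors and CD24- cells preadipocytes. There were 4 libraries of progenitors after high-ratio milk (numbered 1015, 1017, 1018 and 1019), 4 of progenitors after low-ratio milk (108, 114, 119 and 133), 3 of preadipocytes after high-ratio milk (1015, 1017 and 1019) and 4 of preadipocytes after low-ratio milk (108, 114, 119 and 133). The protocols give the exposure as 12 days in one place and 10 days in another. The source names of the 4 low-ratio preadipocyte libraries state the high ratio, and the characteristics field, which states the low ratio, was followed. The sources used here do not say how the ratio of the milk was set or how many pups went into a library, so the errors measure the spread between libraries, part of which may be technical. The title of the series ties low-ratio milk to lipid oxidation in these cells.

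Peroxisomes shorten fatty acids that mitochondria handle poorly, mainly very long-chain, branched-chain and dicarboxylic acids. ABC transporters of the D family bring the acyl-CoA in, an acyl-CoA oxidase makes the first double bond and releases hydrogen peroxide, a bifunctional protein adds water and oxidises the product again, and a thiolase cleaves off the shortened chain. The chain leaves as a carnitine ester for the mitochondrion. The pathway also carries out the last shortening step in the synthesis of docosahexaenoic acid, an n3 fatty acid, and in rodent liver several of its genes are induced through the nuclear receptor PPARalpha, which binds polyunsaturated fatty acids.

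Values are normalized counts, recovered from the deposited log2-like values. Estimated depth ran from 13.9 M reads in preadipocyte library 1015 after high-ratio milk to 68.9 M reads in preadipocyte library 1017 on the same milk. Genes whose symbol starts with mt-, transcribed in mitochondria, held from 4.54% to 6.35% of normalized counts in preadipocytes after high-ratio milk and from 2.50% to 3.03% after low-ratio milk, so these groups did not overlap. In progenitors the share lay the other way, from 1.78% to 2.16% after high-ratio milk and from 2.16% to 2.72% after low-ratio milk. Precursor markers were abundant in every group: Pdgfra, the platelet-derived growth factor receptor of these cells, had group means from 12654 to 16527 normalized counts. Markers of mature fat were low, with Adipoq, the adiponectin gene, at group means from 21.5 to 48.6 and the 6 mature adipocyte markers together between 52.9 and 226 normalized counts in any library. The 9 leukocyte markers summed to between 383 and 1301 in any library. The 5 erythroid markers summed to between 1256 and 4848 in preadipocytes after high-ratio milk and between 739 and 1418 after low-ratio milk. The 6 endothelial markers summed to between 6532 and 8667 and between 8701 and 12642 in these groups, where Tek made up most of the sum (means of 5309 and 8193). Tek was the 1 of the 6 past an adjusted p of 0.05 (log2 fold change 0.61, limma adjusted p = 0.0469), against 2.88% of all genes. After removal of each library's trend over GC content and length of the transcript it had 0.48 (limma adjusted p = 0.0884). Pecam1, Kdr, Emcn and Vwf had values between -0.21 and -0.13 and Cdh5 0.23. In progenitors the erythroid markers summed to between 3281 and 16954 after high-ratio milk and between 1755 and 6931 after low-ratio milk. The endothelial markers summed there to between 9271 and 13495 and between 12296 and 13834. Of these 6, 3 had an unadjusted limma p under 0.05 in progenitors, all higher after low-ratio milk (Pecam1 0.56, Cdh5 0.87 and Kdr 0.75), against 6.88% of all genes. Emcn had 0.42, Vwf 0.12 and Tek -0.07 there. With adjustment 0 passed. The part of these differences in the values below was not tested. In bulk RNA, fewer cells of a type and less RNA per cell cannot be told apart.

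None of the 8 genes differed between the milks past the threshold, an adjusted p of 0.05 from limma over all genes tested, in either population. Crot, the carnitine octanoyltransferase that prepares shortened chains for export, came nearest: in preadipocytes it had 804 ± 103 normalized counts (SD over n = 3) after high-ratio and 562 ± 44.3 (SD over n = 4) after low-ratio milk. Scp2, which encodes the thiolase for branched chains, also had lower values after low-ratio milk in preadipocytes, at 843 ± 73.8 (SD over n = 3) and 657 ± 82.4 (SD over n = 4). The oxidase, the bifunctional enzymes, the straight-chain thiolase and the transporters overlapped between milks in each population. All 8 genes passed the filter on low values, a mean of at least 10 normalized counts, in both tables.

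**Figure D1:**
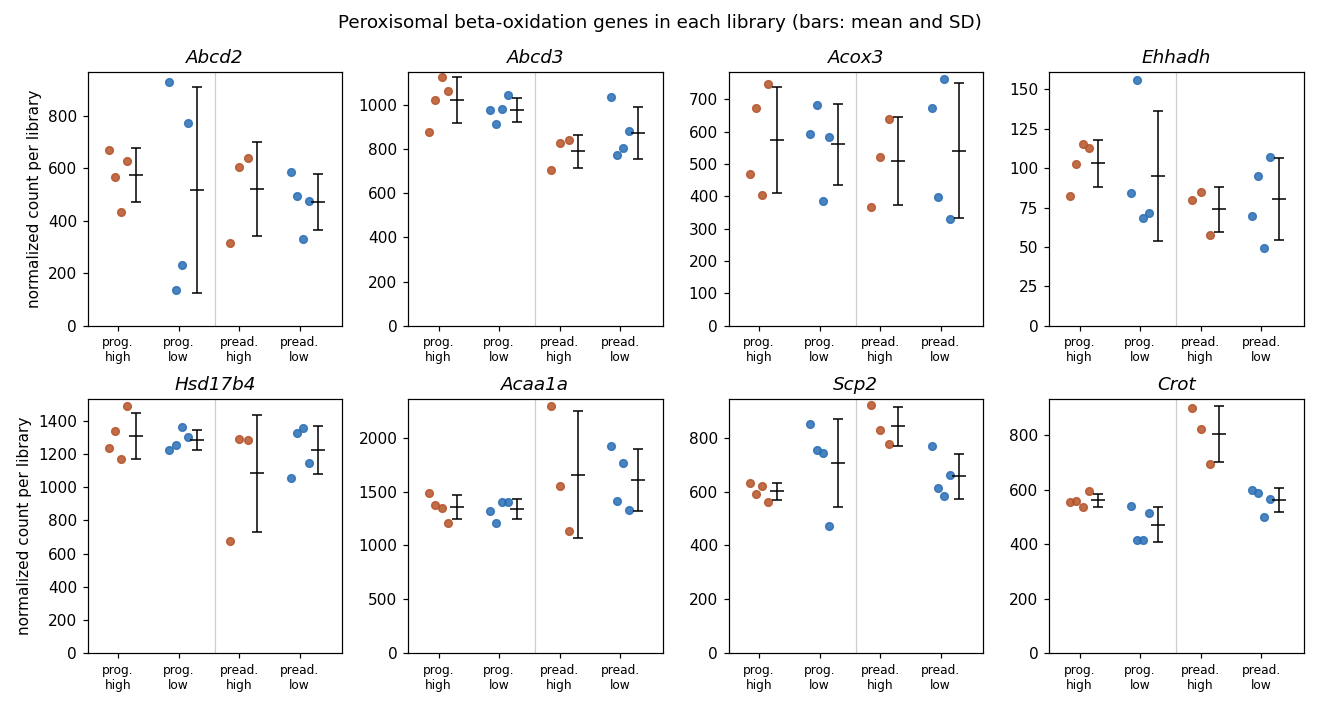
Normalized counts (y axis, linear from 0) of the 8 genes in each library, for progenitors (prog.) and preadipocytes (pread.) on high-ratio (brown) and low-ratio (blue) milk; bars give the mean and SD. In preadipocytes the groups of Crot and of Scp2 do not overlap, as is so for 21.1% of all genes tested there. In progenitors after low-ratio milk Abcd2 spreads from 138 to 928.

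In progenitors, 0 of the 8 genes passed the threshold, as did 0% of the 15973 genes tested. Without adjustment for multiple tests, 0 of the 8 had a p under 0.05, against 6.88% of all genes tested. The groups overlapped for all 8, while they did not for 4.04% of all genes. By the authors' deposited table, 0 of the 8 passed an adjusted p of 0.05 in progenitors, where 0.581% of genes with an adjusted p did. In preadipocytes, 0 of the 8 passed with limma, against 2.88% of the 15893 genes tested. At an unadjusted p under 0.05 there were 2 of 8, Crot and Scp2, against 21.7% of all genes, and the same 2 of 8 had groups that did not overlap, against 21.1%. Both shares lie near the background. By the authors' deposited table, 1 of the 8, Crot, passed in preadipocytes, where 11.9% of genes with an adjusted p did. The median log2 fold change of the 8 genes, low minus high here and throughout, was -0.04 in progenitors and 0.02 in preadipocytes, beside 0.00 and 0.04 over all genes tested.

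The transporters come first in the pathway. Abcd3, also known as PMP70, an abundant protein of the peroxisomal membrane that carries long, branched and dicarboxylic acyl-CoA, was steady in progenitors, with 876 (1015), 1023 (1017), 1125 (1018) and 1063 normalized counts (1019) after high-ratio milk. After low-ratio milk it had 978 (108), 911 (114), 979 (119) and 1043 (133), all within the range of the high-ratio libraries. In preadipocytes it had 704 (1015), 827 (1017) and 838 (1019) after high-ratio milk against 1034 (108), 772 (114), 806 (119) and 881 (133). The upper libraries after low-ratio milk lay above the high-ratio group and the others within it. Its log2 fold change was -0.06 ± 0.11 (SE) in progenitors and 0.14 ± 0.14 in preadipocytes (limma adjusted p = 0.921 and 0.601).

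Abcd2, a transporter of very long-chain and polyunsaturated acyl-CoA, had its widest spread in progenitors after low-ratio milk, with a coefficient of variation of 75.5%, and lay between 18.0% and 34.1% in the other groups. In progenitors it had 670.5 (1015), 567 (1017), 434 (1018) and 629 normalized counts (1019) after high-ratio milk. After low-ratio milk it had 928 (108), 138 (114), 233 (119) and 775 (133). The low-ratio libraries thus fell on both sides of the high-ratio group, and the highest was 6.74 times the lowest, where no other gene of the 8 went beyond 2.31 in any group. The log2 fold change of -0.54 had a 95% interval from -1.76 to 0.68 (limma adjusted p = 0.845). It was -0.04 without library 114, -0.29 without 119, -0.87 without 133 and -0.96 without 108, and the authors' deposited table gives -0.15. In preadipocytes Abcd2 had 317 (1015), 606 (1017) and 641 (1019) after high-ratio milk and 586 (108), 496 (114), 331 (119) and 477 (133) after low-ratio milk, and its log2 fold change was -0.10 ± 0.29 (SE, limma adjusted p = 0.856). Library 114, the lowest of its group in progenitors, was second highest in preadipocytes.

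The first oxidation is represented by Acox3, an oxidase for branched-chain acyl-CoA. In progenitors it had from 403 to 748 normalized counts after high-ratio and from 387 to 684 after low-ratio milk. In preadipocytes it had 368 (1015), 521 (1017) and 641 (1019) after high-ratio milk and 672 (108), 399 (114), 764 (119) and 330 (133) after low-ratio milk. The low-ratio preadipocyte libraries bracketed the high-ratio ones. Its log2 fold change was -0.02 ± 0.24 (SE) in progenitors and 0.04 ± 0.32 in preadipocytes (limma adjusted p = 0.989 and 0.961), and the 95% interval in preadipocytes ran from -0.70 to 0.77.

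Ehhadh and Hsd17b4 encode the L- and D-bifunctional proteins, which carry out the same pair of steps with opposite stereochemistry. Hsd17b4, the form used for very long-chain and branched substrates, had 1310 ± 139 (SD over n = 4) and 1285 ± 59.6 normalized counts (SD over n = 4) in progenitors after high-ratio and after low-ratio milk. In preadipocytes after high-ratio milk it had 677 (1015), 1289 (1017) and 1284 (1019), so that the shallowest library stood apart from its group. After low-ratio milk it had 1057 (108), 1328 (114), 1360 (119) and 1147 (133). The log2 fold change in preadipocytes was 0.23 ± 0.23 (SE, limma adjusted p = 0.603) and without library 1015 it was -0.08. Ehhadh, an abundant PPARalpha-induced protein in rodent liver, was the lowest of the 8 in these cells. In progenitors it had 82.3 (1015), 102 (1017), 115 (1018) and 113 (1019) after high-ratio milk and 84.3 (108), 156 (114), 68.5 (119) and 71.3 (133) after low-ratio milk. In preadipocytes it had 79.5 (1015), 84.6 (1017) and 57.3 (1019) against 69.7 (108), 94.8 (114), 49.1 (119) and 107 (133). The low-ratio groups held both the highest and the lowest library of each population. The log2 fold changes were -0.19 ± 0.29 (SE) and 0.08 ± 0.33 (limma adjusted p = 0.903 and 0.911).

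Acaa1a and Scp2 encode the thiolases. Acaa1a, the straight-chain thiolase, had 1357 ± 112 (SD over n = 4) and 1335 ± 93.1 normalized counts (SD over n = 4) in progenitors after high-ratio and after low-ratio milk. In preadipocytes after high-ratio milk it spread over 2298 (1015), 1549 (1017) and 1130 (1019), and after low-ratio milk over 1928 (108), 1409 (114), 1763 (119) and 1328 (133). The log2 fold change was -0.02 ± 0.10 (SE) in progenitors and -0.00 ± 0.24 in preadipocytes (limma adjusted p = 0.968 and 0.998). Library 1015, lowest of its group for Hsd17b4, was highest for Acaa1a, and without it the preadipocyte value of Acaa1a was 0.26. Its paralog Acaa1b had means of 10.9 and 19.5 normalized counts in progenitors and preadipocytes, and reads of near-identical copies may be shared. At its locus Acaa1a overlaps Myd88 on the other strand (means of 2880 and 2970), and the sources used here do not state whether counting used the strand.

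Scp2 yields both the branched-chain thiolase and, from an inner start, sterol carrier protein. In preadipocytes after high-ratio milk it had 922 (1015), 831 (1017) and 775 normalized counts (1019), and after low-ratio milk 771 (108), 612 (114), 583 (119) and 662 (133). Every low-ratio library lay below every high-ratio one, with 771 next to 775 at the border. In progenitors the mean was higher after low-ratio milk, with 632 (1015), 590 (1017), 620 (1018) and 563 (1019) after high-ratio milk and 851 (108), 754 (114), 745 (119) and 471 (133) after low-ratio milk. There 3 of 4 low-ratio libraries lay above the high-ratio group and library 133 below it. The log2 fold change was 0.20 ± 0.18 (SE, limma adjusted p = 0.825) in progenitors and -0.36 ± 0.14 (adjusted p = 0.181) in preadipocytes. The difference between these effects, tested as an interaction over all 15 libraries, was -0.56 ± 0.23 (SE, limma adjusted p = 0.222). Leaving out progenitor library 133 took it to -0.74 (limma adjusted p = 0.0445), the lowest p of the 15 refits that left out 1 library. Over these it ran from -0.74 to -0.46, with a limma adjusted p of up to 0.409. After removal of each library's trend over GC content and length of the transcript, the interaction was -0.43 (limma adjusted p = 0.382). The Scp2 effect in preadipocytes was then -0.25 (limma adjusted p = 0.339). The transcribed pseudogene Scp2-ps2 had means of 197 and 212 normalized counts, and Podn overlaps Scp2 on the same strand with means of 3010 and 2290, so part of the Scp2 reads may be uncertain.

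Crot transfers medium-length chains, the products of peroxisomal shortening, from CoA to carnitine. In preadipocytes after high-ratio milk it had 898 (1015), 821 (1017) and 694 normalized counts (1019), and after low-ratio milk 597 (108), 588 (114), 499 (119) and 564 (133). All low-ratio libraries lay below all high-ratio libraries, with a gap of about the size of the spread within the low-ratio group. In progenitors it had 556 (1015), 557 (1017), 535 (1018) and 594 (1019) after high-ratio milk and 541 (108), 416 (114), 415 (119) and 515 (133) after low-ratio milk. There library 108 reached into the high-ratio group and the other 3 lay below it. The log2 fold change was -0.51 ± 0.14 (SE) in preadipocytes, with a 95% interval from -0.83 to -0.19 and a limma adjusted p of 0.0847, and -0.26 ± 0.13 in progenitors (adjusted p = 0.748). The authors' deposited table gives Crot a log2 fold change of -0.51 with an adjusted p of 0.00951 in preadipocytes and -0.25 with 0.619 in progenitors. Without high-ratio library 1019 the limma adjusted p in preadipocytes was 0.0443, and without any other single library it lay between 0.121 and 0.235. After removal of each library's trend over GC content and length of the transcript, the log2 fold change was -0.39 (adjusted p = 0.17). Over 5 equal bins of genes by GC content, the bin with Crot (44.1% GC), Scp2, Abcd3 and Ehhadh had a median log2 fold change of 0.01 in preadipocytes and the lowest bin, with Abcd2, -0.235.

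The promoters of Crot and Scp2 are shown because these were the genes of the 8 whose preadipocyte groups did not overlap, and that of Ehhadh because it is the classical PPARalpha target of the pathway. They are RefSeq windows on GRCm38.p6 of 250 bases before to 50 after a gene start, 5′ to 3′ on the strand of the gene, all 3 on the minus strand: Crot at chr5:8997097-8997396, Scp2 at chr4:108118498-108118797 and Ehhadh at chr16:21787785-21788084. The Scp2 window lies inside the GENCODE span of the gene, which reaches to 108144998, and which Scp2 transcript starts there was not examined. Capitals mark GGGCGG (GC box), CCAAT and AGGTCA (the core motif of nuclear receptors) on either strand.
Crot: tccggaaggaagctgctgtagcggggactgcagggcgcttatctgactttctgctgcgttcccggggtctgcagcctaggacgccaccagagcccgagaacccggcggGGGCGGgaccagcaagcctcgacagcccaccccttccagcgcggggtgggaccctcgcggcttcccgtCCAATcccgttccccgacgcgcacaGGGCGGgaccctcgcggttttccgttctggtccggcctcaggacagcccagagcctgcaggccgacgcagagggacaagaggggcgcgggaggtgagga
Scp2: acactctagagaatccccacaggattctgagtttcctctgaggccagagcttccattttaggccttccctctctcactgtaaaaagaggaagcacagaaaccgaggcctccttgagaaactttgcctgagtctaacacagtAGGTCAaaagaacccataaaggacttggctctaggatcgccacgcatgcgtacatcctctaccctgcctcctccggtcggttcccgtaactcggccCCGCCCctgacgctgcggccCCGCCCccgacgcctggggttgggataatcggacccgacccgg
Ehhadh: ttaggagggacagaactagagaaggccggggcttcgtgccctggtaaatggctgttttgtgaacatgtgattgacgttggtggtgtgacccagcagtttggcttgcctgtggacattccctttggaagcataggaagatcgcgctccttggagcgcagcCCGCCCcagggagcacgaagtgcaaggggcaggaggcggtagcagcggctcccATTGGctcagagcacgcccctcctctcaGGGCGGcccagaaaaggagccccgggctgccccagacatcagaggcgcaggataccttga

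The Crot window held GGGCGG at 2 places and CCAAT at 1, the Ehhadh window the same numbers, and the Scp2 window GGGCGG at 2 places and AGGTCA at 1. Of all 32851 windows of this length in the RefSeq table, 35.7% held GGGCGG, 37.4% CCAAT and 16.3% AGGTCA on either strand. The PPAR element, searched as AGGTCA repeated after 1 base of any kind on either strand, was in 0.0396% of all windows and in none of the windows of the 6 members in the table, and TATAAA, in 13.6% of all windows, was in none of them either. The windows of Crot, Scp2 and Ehhadh had 29, 17 and 14 CpG pairs, where the median window had 7. Such matches describe the letters and do not show binding. With the exact PPAR element in so few windows, its absence from 6 says nothing about PPAR binding. Inexact copies and sites outside these windows were not searched.

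Levels were compared between genes per kb of the longest coding transcript. Acaa1a was highest and Hsd17b4 next in all 4 groups, and Acox3, Abcd2 and Ehhadh took the last 3 places in that order in each. In progenitors after high-ratio milk the order was Acaa1a (770.0 ± 63.5 normalized counts per kb, SD over n = 4), Hsd17b4 (488 ± 51.8), Abcd3 (293 ± 30.3), Scp2 (228 ± 11.7), Crot (187 ± 8.07), Acox3 (144 ± 41.2), Abcd2 (104 ± 18.7) and Ehhadh (34.6 ± 5.01). There Crot overlapped Acox3, and Acox3 overlapped Abcd2, in the range over libraries, while all other neighbours were separate. In preadipocytes after high-ratio milk Scp2 (319 ± 28.0 per kb, SD over n = 3) and Crot (268 ± 34.3) stood above Abcd3 (226 ± 21.3), and the neighbours from Hsd17b4 down to Abcd3 overlapped. After low-ratio milk Abcd3 again came next after Hsd17b4 in both populations, with Scp2 overlapping it. Per kb, Ehhadh lay above 26.4% of tested genes in progenitors and 23.0% in preadipocytes, and Acaa1a above 86.6% and 89.2%. The order depended on the length used: per kb of the median transcript length of each gene, Hsd17b4 stood above Acaa1a in progenitors (2239 and 1544 after high-ratio, 2197 and 1520 after low-ratio milk) and in preadipocytes after low-ratio milk (2090 and 1829), and Abcd2 moved from the place before Ehhadh to near Scp2 (1089 and 743 in progenitors after high-ratio milk). Ehhadh was lowest in all 4 groups with either length.

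**Figure D2:**
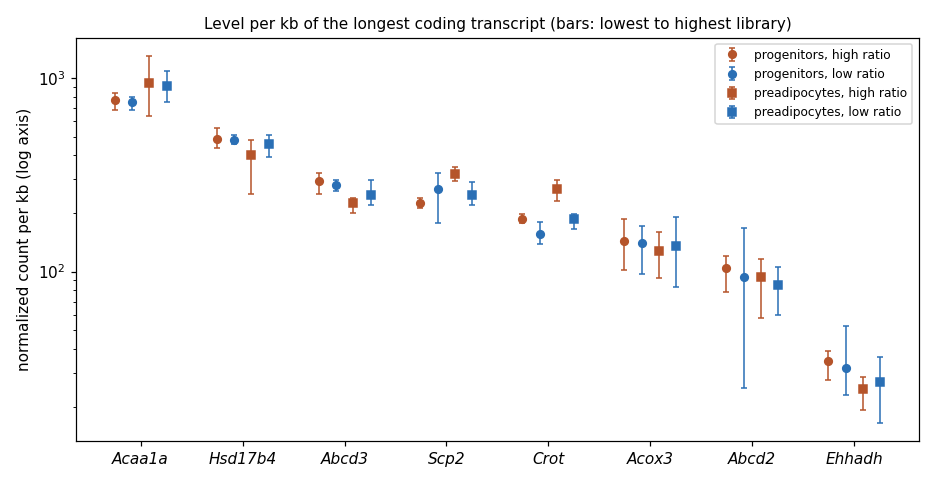
Mean normalized count per kb of the longest coding transcript (y axis, log scale) of the 8 genes in the 4 groups, circles for progenitors and squares for preadipocytes, with bars from the lowest to the highest library. With this length Acaa1a is highest and Ehhadh lowest in all groups (with the median transcript length Hsd17b4 is above Acaa1a in all but preadipocytes after high-ratio milk). Within preadipocytes, Crot and Scp2 have higher means after high-ratio than after low-ratio milk. Each population was normalized on its own, so heights are not to be compared between populations.

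Because each population's table has its own normalization, levels across them were set side by side with no test, as CPM computed from the normalized counts and their total in each library. Crot had a mean of 12.5 CPM in progenitors (10.1 to 14.2 over 8 libraries) and 19.3 in preadipocytes (14.2 to 26.8 over 7). Acaa1a had 32.5 (29.0 to 35.5) and 47.3 (32.8 to 68.5), and Scp2 15.9 (11.2 to 21.3) and 21.4 (16.6 to 27.5). Hsd17b4 was at 31.4 and 33.5, Abcd3 at 24.2 in both, Abcd2 at 13.2 and 14.3, Acox3 at 13.8 and 15.3, and Ehhadh at 2.40 and 2.23 CPM.

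The interaction asked whether the milk effect differed between populations. Of the 8 genes 0 passed an adjusted p of 0.05, against 2.28% of the 15354 genes tested in both tables, and 1 of 8, Scp2, had an unadjusted p under 0.05, against 17.6%. Of the 350 genes called over the whole tables, 96 were higher and 254 lower in the preadipocyte than in the progenitor effect (39 and 402 when libraries were scaled to their nuclear genes). After Scp2, the smallest p was that of Crot (-0.25 ± 0.18 SE, limma adjusted p = 0.507). The 95% intervals of Crot (-0.64 to 0.13) and of the other 6 genes included 0. They reached from -1.07 to 1.94 for Abcd2, the widest, and from -0.16 to 0.56 for Abcd3, the narrowest.

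**Figure D3:**
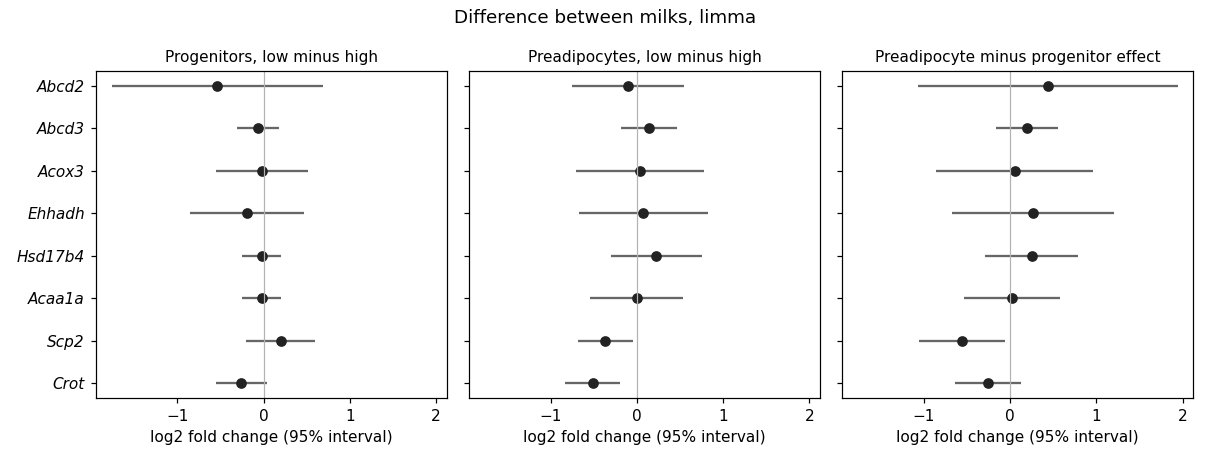
Log2 fold change (x axis, low minus high) of the 8 genes with its 95% interval from limma in progenitors, in preadipocytes, and for the difference between these effects. The preadipocyte intervals of Crot (-0.83 to -0.19) and Scp2 lie below 0 before adjustment for the number of genes, and that of Abcd2 in progenitors is the widest of the milk effects.

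The 8 genes did not vary as a block between libraries. Over the 15 libraries, with the mean of each population removed, 12 of the 28 pairs of genes had a Pearson r above 0 and the median r was -0.11, as a description across libraries that share milk, sort and depth. The closest pair was Abcd2 and Crot (r = 0.465) and the most opposed Hsd17b4 and Acaa1a (r = -0.672). Among 15345 other genes tested in both tables, Crot was most like Akr1c14 (r = 0.935) and Hsd17b4 most like Mtus1 (0.922). Ehhadh was most like Cdk5rap3 (0.89) and Scp2 most like Cd274 (0.889). For the other 4 genes the highest r lay between 0.849 (Acox3, with Chaf1b) and 0.872 (Acaa1a, with Mocs3). Each of these is the highest of 15345 values over 15 libraries, a choice that alone yields high values of r. The milk means were not removed and no chance level was set, so the partners are not evidence of shared regulation.

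Other genes of the organelle were described by lists, to be read against the 6.88% of all genes in progenitors and the 21.7% in preadipocytes with an unadjusted p under 0.05. Of 24 further genes of peroxisomal fatty acid oxidation 21 were tested, and with limma 0 passed in either population (1 in progenitors and 3 in preadipocytes at an unadjusted p under 0.05), with medians of -0.06 in progenitors and 0.05 in preadipocytes. Those with the smallest p in preadipocytes were Ech1, a dienoyl-CoA isomerase (-0.50, limma adjusted p = 0.145), and Nudt7 and Nudt19, which hydrolyse CoA and its esters (-0.90 and -0.42, adjusted p = 0.184 and 0.22). In progenitors they were the epoxide hydrolase gene Ephx2 (-0.61, adjusted p = 0.676), the thioesterase gene Acot4 (1.70, 0.726) and Nudt19 (-0.37, 0.726). Acot4 was low there, with 11.1 ± 2.74 (SD over n = 4) after high-ratio and 70.1 ± 93.8 normalized counts (SD over n = 4) after low-ratio milk. Among 16 peroxins, which build the organelle and import its enzymes, 1 fell in preadipocytes, 0 rose, and the median was 0.04. In preadipocytes 2.35% of all genes tested fell. The gene that fell was Pex2, a ubiquitin ligase subunit that recycles the import receptor, with 1014 ± 93.5 (SD over n = 3) and 584 ± 57.1 normalized counts (SD over n = 4), a log2 fold change of -0.80 ± 0.13 (SE, limma adjusted p = 0.0347). The call of Pex2 ended with the GC and length trend removed (-0.50, adjusted p = 0.0878) and without library 1015 (0.105), 1017 (0.12), 108 (0.0657), 114 (0.0749), 119 (0.0807) or 133 (0.1). Pex14, a part of the import pore, had a log2 fold change of 0.63 (limma adjusted p = 0.176). In progenitors 0 of the 16 peroxins passed limma (1 at an unadjusted p under 0.05), with Pex11g (-0.87, adjusted p = 0.712), Pex3 (-0.34, 0.773) and Pex6 (-0.15, 0.809) at the smallest p.

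Of 5 genes of ether lipid synthesis, which begins in peroxisomes, 0 passed limma in either population (0 in progenitors and 1 in preadipocytes at an unadjusted p under 0.05). In preadipocytes Gnpat, the enzyme of the first step, had a log2 fold change of 0.48 (limma adjusted p = 0.183), Far2 -0.77 (0.252) and Dhrs7b -0.25 (0.475). In progenitors the values were -0.16 for Dhrs7b, 0.33 for Far2 and -0.07 for Gnpat (adjusted p = 0.848, 0.87 and 0.921). Of 19 genes of mitochondrial beta-oxidation 0 passed limma in either population, with medians of -0.11 in progenitors and 0.10 in preadipocytes. At an unadjusted p under 0.05 there were 1 in progenitors and 7 in preadipocytes, against 6.88% and 21.7% of all genes tested. In preadipocytes 11 of the 19 values lay above 0 and 8 below, from -0.52 to 0.64. There the ketone body thiolase gene Acat1 (-0.40, adjusted p = 0.0971), the dienoyl-CoA reductase gene Decr1 (-0.52, 0.098) and the electron transfer flavoprotein gene Etfa (-0.43, 0.128) had the smallest p. With the GC and length trend removed the values of Acat1, Decr1 and Etfa were -0.39, -0.42 and -0.10 (limma adjusted p = 0.147, 0.19 and 0.665). In progenitors Etfa (-0.41, adjusted p = 0.688), Acad9 (-0.35, 0.728) and Acadl (-0.13, 0.802) had the smallest p. Of the 6 genes of PPAR and partner receptors 0 passed limma in either population (0 in progenitors and 1 in preadipocytes at an unadjusted p under 0.05). Ppara itself was low in both populations, with 13.7 ± 6.07 (SD over n = 3) and 18.5 ± 8.17 normalized counts (SD over n = 4) after high-ratio and after low-ratio milk in preadipocytes. In progenitors it had 27.6 ± 29.3 (SD over n = 4) and 47.4 ± 35.9 normalized counts (SD over n = 4), and a log2 fold change of 1.17 (adjusted p = 0.818), beside 1.57 for the coactivator gene Ppargc1a (0.762) and 0.14 for Ppard (0.87). Ppargc1a was near the floor there, with 6.45 ± 5.05 (SD over n = 4) after high-ratio and 36.32 ± 38.55 normalized counts (SD over n = 4) after low-ratio milk. In preadipocytes Ppard (0.27, adjusted p = 0.227), Rxra (0.28, 0.387) and Rxrb (-0.25, 0.475) had the smallest p. With the GC and length trend removed the values of Ppard, Rxra and Rxrb were 0.03, -0.03 and -0.44 (limma adjusted p = 0.913, 0.934 and 0.281). In the authors' deposited table, 0 genes of the 5 lists passed in progenitors, and in preadipocytes 1 of the 16 peroxins (Pex2), 2 of the 19 mitochondrial genes (Acat1 and Decr1) and 0 of the other lists did, against 11.9% of all genes with an adjusted p. In the interaction 0 genes of the 5 lists passed limma, and at an unadjusted p under 0.05 there were 4 of the 19 mitochondrial genes, 0 of the 6 receptor genes and 1 in each of the other lists, against 17.6% of all genes.

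**Figure D4:**
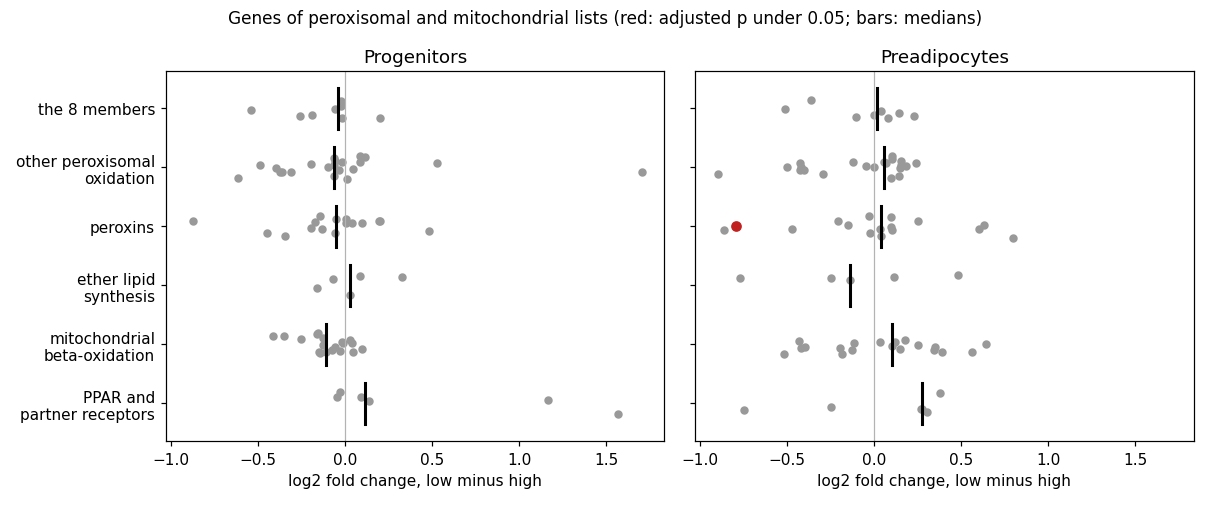
Log2 fold changes (x axis, low minus high) of the 8 genes and of the 5 lists of related genes in progenitors and preadipocytes, 1 point per gene, with black bars at the medians and red for an adjusted p under 0.05. Pex2 (-0.80) in preadipocytes is the single red point, and the medians of the 8 genes lie at -0.04 and 0.02.

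By GENCODE M21 on GRCm38, all 8 genes are protein coding, and a value sums over the whole gene, not an exon. On the minus strand, Crot (ENSMUSG00000003623) spans 8966033 to 8997324 of chromosome 5, Scp2 (ENSMUSG00000028603) 108043839 to 108144998 of chromosome 4, and Abcd3 (ENSMUSG00000028127) 121758774 to 121815302 of chromosome 3. Also on the minus strand, Ehhadh (ENSMUSG00000022853) spans 21761287 to 21787807 of chromosome 16 and Abcd2 (ENSMUSG00000055782) 91145871 to 91191799 of chromosome 15. On the plus strand, Acox3 (ENSMUSG00000029098) spans 35583040 to 35615352 of chromosome 5, Acaa1a (ENSMUSG00000036138) 119339676 to 119350299 of chromosome 9, and Hsd17b4 (ENSMUSG00000024507) 50128201 to 50196269 of chromosome 18.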

How the data were processed

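RNA-seq values of 15 libraries were used. The authors deposited 1 table per sorted population, each normalized on its own, with expression on the log2-like scale of a variance stabilizing transformation, beside their own comparison of the milks as a log2 fold change with raw and adjusted p-values. Per the submitters' processing notes, DESeq2 1.28.1 and Salmon 0.14.2 were used, with GRCm38 and mm10 named as builds. The sources used here give no annotation release and no strand setting. All sample columns were matched to a library by their names.

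The transformation was inverted from the floor of each table (7.70 in progenitors, 7.12 in preadipocytes). At means of at least 100, ratios of recovered group means differed from the deposited log2 fold changes by a median of 0.000751 in progenitors and 0.00304 in preadipocytes. Depth was estimated from the worth of 1 read, the step on which low values fall. Because 26.0% to 79.1% of values up to 20 reads came out whole (tolerance 0.02, genes with 1 transcript), no count test was run.

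The milks were then compared, table by table, on log2(normalized count + 1), a pseudocount of 1. The fit was limma 3.58.1 (R 4.3.3) with trend and robust options, over genes whose mean reached 10, with Benjamini-Hochberg adjustment over all of them. Fold changes of genes with few reads are understated on this scale. The interaction was fitted over all 15 libraries. The procedure was tested on simulated data. These had no GC trend and no library that stood apart, so the test does not cover such features. Symbols came from GENCODE M21 for 23322 and 23096 genes, and length and GC content from the longest coding transcript. The 8 genes and all lists were chosen with earlier results of these data known. From each list of related genes the text names the members past the threshold or, below 3, those with the smallest p up to 3, and for likeness the gene with the highest r. One gene that this rule names is not reported here. Alternatives were the deposited values, other pseudocounts, no filter, other scalings, plain limma, removal of the GC and length trend (splines with 5 degrees of freedom), a replicate block, the authors' comparison, and leaving out each library.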

Additional observations from a re-analysis of the deposited data

How the results depend on the processing

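Of 456 refits of the 24 fold changes of the 8 genes, 408 kept their direction and their side of the threshold, and 45 changed sign without passing it. Scaled to nuclear genes, the sign changed for Abcd3 (0.00996), Acaa1a (0.0472), Acox3 (0.0528) and Hsd17b4 (0.0467) in progenitors, Acox3 (-0.0425) and Ehhadh (-0.0016) in preadipocytes, and Acaa1a (-0.13) and Acox3 (-0.10) in the interaction, whose median over all genes moved from 0.05 to -0.10. Quantile normalization gave Acaa1a -0.0282 in the interaction. Removing the GC and length trend gave 0.0099 for Abcd2 and -0.18 for Acox3 in preadipocytes and -0.13 for Acox3 in the interaction.

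Leaving out 1 library gave, in preadipocytes, ranges of -0.61 to -0.43 for Crot, -0.43 to 0.0774 for Abcd2, -0.25 to 0.26 for Acaa1a, -0.18 to 0.25 for Acox3, -0.0923 to 0.29 for Ehhadh and -0.0811 to 0.38 for Hsd17b4. In progenitors they were -0.0748 to 0.0248 for Acaa1a, -0.17 to 0.15 for Acox3 and -0.0737 to 0.0415 for Hsd17b4. In the interaction they were -0.0639 to 0.85 for Abcd2, -0.23 to 0.29 for Acaa1a, -0.16 to 0.26 for Acox3 and -0.0586 to 0.41 for Hsd17b4. The number of the 8 genes past the threshold ranged from 0 to 1 in preadipocytes (Crot, without high-ratio 1019) and in the interaction (Scp2, without progenitor 133). The authors' comparison also called 1 of the 8 in preadipocytes (Crot, -0.513).

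Genes called over the whole table numbered 458 in preadipocytes, 6 with plain limma, 13 without the GC and length trend, 1834 in the authors' comparison and from 2 to 1159 without 1 library. They numbered 0 in progenitors, 101 in the authors' comparison and from 0 to 3 without 1 library. In the interaction they numbered 350, 153 with plain limma, 40 without the GC and length trend and from 70 to 849 without 1 library. The causes were not tested. Libraries with the same number in both populations did not deviate together (correlations from -0.0594 to 0.091), and a replicate block on the number gave 400 genes and 0 of the 8. Without high-ratio library 1015, the shallowest (13.9 M reads), 16 genes were called in preadipocytes, and without 1017, the deepest (68.9 M reads), 7 were. Without low-ratio library 108, 114, 119 or 133 the numbers were 2, 13, 16 and 4. Only without high-ratio library 1019 (22.9 M reads) did the number rise, to 1159. For Abcd2 in progenitors, leaving out 1 library gave -0.96 to -0.04.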
